A study of Bos taurus with 94 samples.

Results

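The 3 sarcomeric myosin heavy chain genes MYH1, MYH2 and MYH7 and the myostatin gene MSTN were followed through 94 bovine tissue libraries. They were taken by Ensembl identifier (ENSBTAG00000018204, ENSBTAG00000007090, ENSBTAG00000009703 and ENSBTAG00000011808, in that order) and are 4 of the 24616 genes measured. The libraries were made from total RNA of snap-frozen tissues of Hereford cattle, all labelled adult (a library labelled fetal testis included), as part of a resource for interpreting genetic association in cattle. By label there were 5 hindlimb muscles (semitendinosus, biceps femoris, gluteus medius, semimembranosus and rectus femoris), 3 forelimb muscles (infraspinatus, triceps brachii and supraspinatus), longissimus dorsi of the trunk, internal tongue muscle and diaphragm, which make 11 skeletal muscle libraries. The heart gave 2 libraries, ventricle and atrium, and the other 81 came from non-muscle organs or from mixed tissues such as tongue surface and larynx. Each muscle has 1 library and the labels name no animal, so replicates of a group are different muscles and p-values measure only the spread between these libraries.

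Myosin heavy chains are the motor proteins of the thick filament, and the chain that a fibre carries sets its speed of contraction. MYH7 encodes the slow chain of type I fibres, which is also the beta chain of the heart, while MYH2 encodes the fast chain of type IIa fibres and MYH1 that of the faster type IIx fibres. MSTN encodes myostatin, a secreted member of the transforming growth factor beta family that restrains muscle growth, and cattle that lack its function are double-muscled. In a bulk library, a change in the number of fibres of a type and a change in the RNA that each fibre holds cannot be told apart.

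The level of a gene is given in FPKM, in which fragment counts are divided by transcript length and by the size of the library, so genes of different length can be set side by side. The read depth is unknown. The deposited table holds identifiers only, and of its identifiers 0 matched the gene table used here, so the 4 symbols come from the list by which the genes were chosen and no other gene could be named. The levels were checked against those symbols: MYH7 was the only chain high in both heart libraries, and MYH1 and MYH2 were high in limb muscle and ran from 0.354 to 3.34 FPKM in heart. In the RefSeq annotation of ARS-UCD2.0, MYH1 and MYH2 are neighbours, MYH3 lies beside MYH2, and MYH6, the alpha chain of the heart, lies beside MYH7. These genes are close copies of each other, so fragments may have been shared between them and the levels of each are uncertain to that extent. Genes for other heavy chains were not analysed here, and every share below is a share of MYH1, MYH2 and MYH7 alone.

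Several libraries did not resemble the tissue they are labelled with when compared over 18027 genes that exclude the 4 described here. The library labelled diaphragm was closest to gall bladder (Spearman's rho 0.994 across genes) and had 0.065 FPKM of MYH1, 0.021 of MYH7 and MYH2 listed at 0. The library labelled choroid plexus was closest to triceps brachii (0.84), and the one labelled corpus luteum to longissimus dorsi (0.956). These libraries keep their labels, and results that rest on them are also given without them. FPKM totals ran from 636041 to 719758 in the limb and trunk muscles, where 8785 to 10358 genes reached an FPKM of 1.

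The 3 heavy chains were abundant in limb and trunk muscle, and their sum varied less than their balance. MYH1 ranked between 11 and 33 among all genes in 8 of the 9 muscles and 212 in gluteus medius, and MYH7 ranked between 15 and 49. Summed over MYH1, MYH2 and MYH7, the level was 14375 ± 2054 FPKM (SD, n = 9) and ran from 10664 in gluteus medius to 17816 in semitendinosus, a 1.67-fold range and 1.48% to 2.80% of all FPKM. MYH1 was the highest chain in 6 of 9 muscles and MYH7 in the other 3. MYH2 exceeded MYH1 in 1 muscle, gluteus medius.

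**Figure D1:**
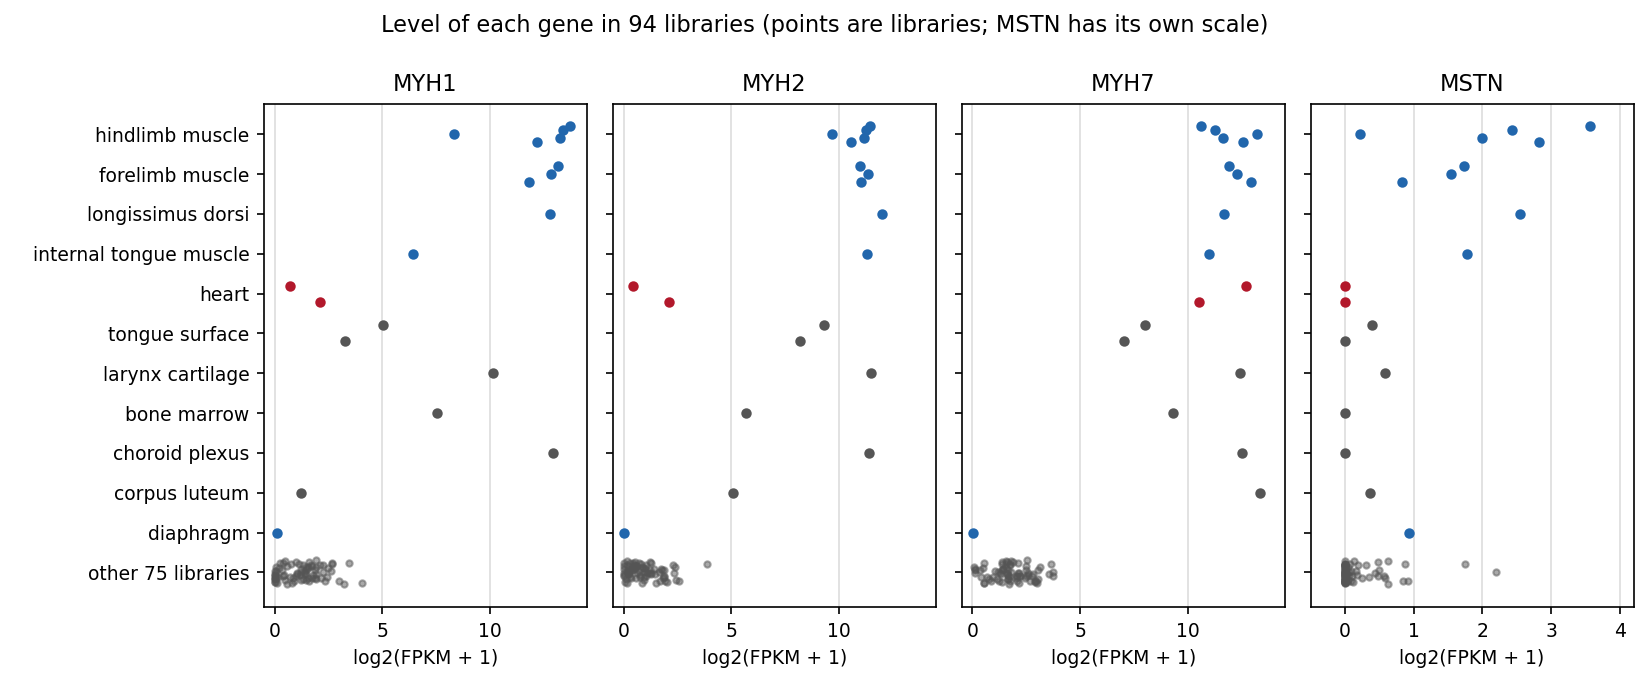
Levels of MYH1, MYH2, MYH7 and MSTN as log2(FPKM + 1), 1 point per library in 12 rows of tissues, blue for libraries labelled skeletal muscle, red for heart and grey for the rest. The muscle libraries except diaphragm sit far to the right for the 3 myosin genes, and the 2 heart libraries do so for MYH7 only. Among the grey rows, choroid plexus and larynx cartilage also do so for all 3 and corpus luteum for MYH7. Tongue surface and bone marrow lie above most other grey points for MYH2 and MYH7.

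MYH1, the IIx chain, had the widest range of the heavy chains in limb and trunk muscle. Its level was 13429 FPKM in semitendinosus, 10769 in biceps femoris, 9645 in semimembranosus, 4691 in rectus femoris and 324 in gluteus medius. In the forelimb it was 9045 in infraspinatus, 7292 in triceps brachii and 3550.3 in supraspinatus, and longissimus dorsi had 6969. The forelimb values lie inside the hindlimb range, and gluteus medius stands apart from the other 8 muscles, which span 3.78-fold with it left out and 41.5-fold with it.

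MYH7, the slow chain, ran in nearly the opposite order. It stood at 1578 FPKM in semitendinosus, 2465 in biceps femoris, 3195 in semimembranosus, 6071 in rectus femoris and 9511 in gluteus medius. In the forelimb it was 3876 in infraspinatus, 5052 in triceps brachii and 7888 in supraspinatus, and longissimus dorsi had 3271. The muscles highest in MYH7 were gluteus medius, supraspinatus and rectus femoris, the same 3 that were lowest in MYH1, and the groups overlapped. Across the 9 muscles the log2 levels of MYH1 and MYH7 had a Spearman's rho of -0.95 and a Pearson's r of -0.79, and r was -0.90 without gluteus medius and supraspinatus, the muscles farthest from the median of MYH1. This is a description of 9 single libraries that share 1 processing.

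MYH2, the IIa chain, varied least. It was highest in longissimus dorsi, with 4049 FPKM, and lowest in gluteus medius, with 829.9. The other hindlimb muscles had 2809 FPKM in semitendinosus, 2471 in biceps femoris, 2314 in semimembranosus and 1522 in rectus femoris. The forelimb muscles had 2034 in infraspinatus, 2098 in supraspinatus and 2630.3 in triceps brachii. The forelimb values were close together, with a mean of 2254 ± 327 (SD, n = 3), inside the hindlimb range.

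Put as shares, the slow chain made up 8.85% of the 3 chains in semitendinosus, 15.7% in biceps femoris, 21.1% in semimembranosus and 22.9% in longissimus dorsi. It made up 25.9% in infraspinatus, 33.7% in triceps brachii, 49.4% in rectus femoris, 58.3% in supraspinatus and 89.2% in gluteus medius. Steps between neighbours in this order cannot be tested with 1 library per muscle. The MYH2 share stayed between 12.4% and 17.6% in 7 of the 9 muscles, and was 28.3% in longissimus dorsi and 7.78% in gluteus medius. Gluteus medius had 10159 genes that reached an FPKM of 1, inside the range of the other muscles, and was closest to rectus femoris (rho 0.961) over all other genes.

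**Figure D2:**
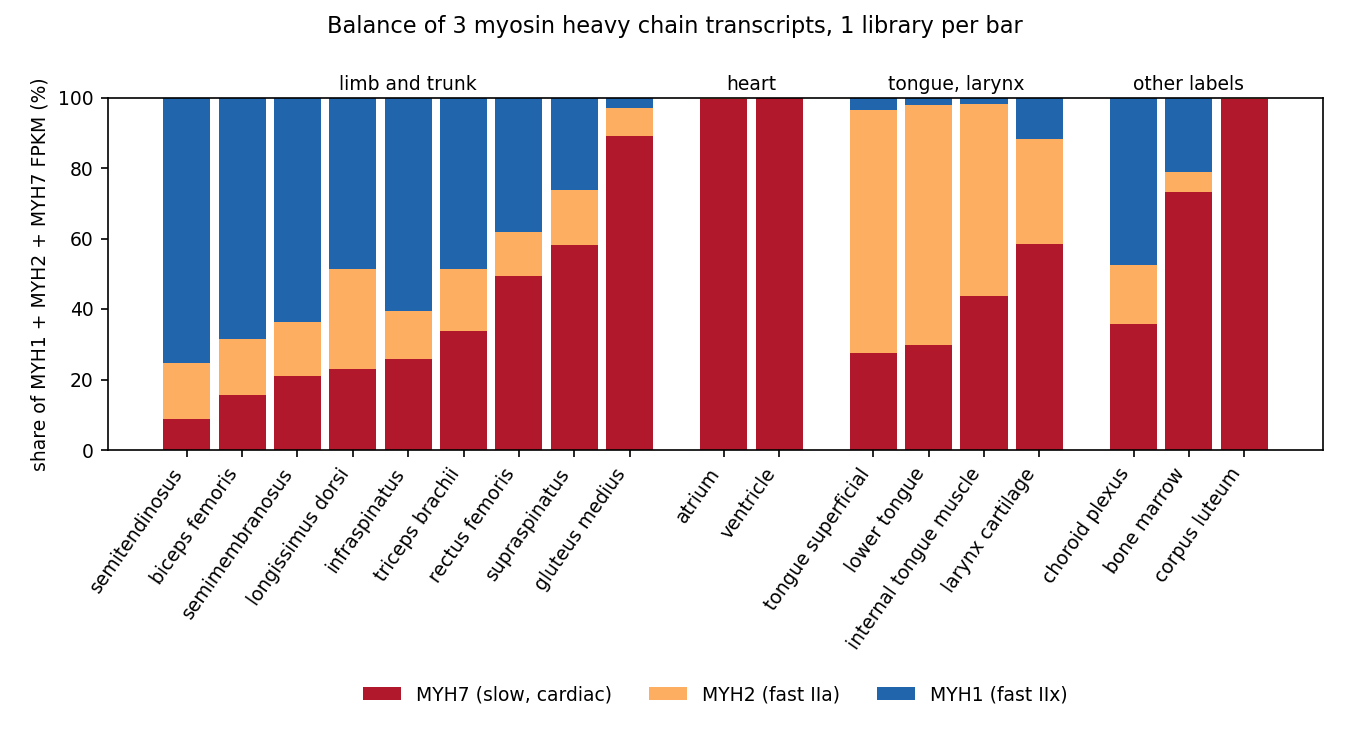
Shares of MYH7, MYH2 and MYH1 in their summed FPKM, 1 stacked bar per library, ordered within each block by the MYH7 share. In limb and trunk muscle the MYH7 share rises from 8.85% to 89.2%, heart is almost all MYH7, and the tongue libraries hold little MYH1; diaphragm is not drawn because its sum was 0.086 FPKM.

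The study's labels allow a comparison of hindlimb with forelimb muscles. The MYH7 share averaged 36.8 ± 33.1% in the hindlimb (SD, n = 5) and 39.3 ± 16.9% in the forelimb (n = 3), and the groups overlapped (exact permutation test, two-sided p = 0.893, adjusted over 3 share tests 0.893, where 0.0357 is the smallest p this design allows). The share of MYH2 in the sum of both fast chains averaged 30.3 ± 23.4% and 27.3 ± 9.42% (n = 5 and 3, exact permutation p = 0.893, adjusted 0.893). Without gluteus medius the difference in the MYH7 share went from -2.46 to -15.5 percentage points and that in the MYH2 share turned from 3.01 to -7.38. Other muscles turned them too: the MYH7 share difference was 7.02 without supraspinatus, 4.54 without semitendinosus, 2.83 without biceps femoris and 1.48 without semimembranosus, and the MYH2 share difference -1.47 without infraspinatus. Neither difference kept its sign over these libraries.

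The 4 genes did not pass the test between hindlimb and forelimb either. limma was run on log2(FPKM + 1) and p-values were adjusted by Benjamini and Hochberg's method across the tested genes. Calls needed both an adjusted p below 0.05 and a change of 1 or more on the log2 scale. The hindlimb minus forelimb difference was -0.41 for MYH1 (95% confidence interval -2.86 to 2.04), -0.29 for MYH2 (-1.15 to 0.57), -0.53 for MYH7 (-1.78 to 0.72) and 0.84 for MSTN (-0.58 to 2.25), all with a limma adjusted p of 0.999. Of the 10502 genes tested, 0% were called and 208 had an unadjusted p under 0.05, so in this comparison no gene at all was called. These intervals leave room for differences of more than 2-fold. Without gluteus medius the MYH1 difference turned to 0.55, that of MYH2 went to -0.0098, that of MYH7 to -0.86 and that of MSTN to 1.34 (limma adjusted p = 0.983 or more, with an unadjusted limma p of 0.00671 for MSTN). Without semitendinosus MYH7 was at -0.22 and MSTN at 0.50, and MYH2 was at -0.45.

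The variation among muscles was above that of the median gene for all 4 members, most of all for MYH1, where it rests largely on gluteus medius. Across the 9 limb and trunk muscles the SD of log2(FPKM + 1) was 1.63 for MYH1, 1.03 for MSTN, 0.83 for MYH7 and 0.64 for MYH2, beside a median of 0.30 over 10100 genes with a mean FPKM of at least 1 in these muscles. That of MYH1 exceeded 99.7% of these genes, MSTN 97.8%, MYH7 95.2% and MYH2 89.0%. With gluteus medius left out the SD fell to 0.63 for MYH1, which exceeded 89.9% of genes. It was 0.84 for MSTN (above 96.0% of genes), 0.74 for MYH7 (93.8%) and 0.41 for MYH2 (71.9%), beside a median of 0.29.

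MSTN, which acts on muscle growth and is not a structural gene, was low in every library. In the hindlimb it was 10.8 FPKM in semitendinosus, 6.11 in rectus femoris, 4.41 in biceps femoris, 2.97 in semimembranosus and 0.161 in gluteus medius. The forelimb muscles had 2.31 in infraspinatus, 1.91 in triceps brachii and 0.786 in supraspinatus, longissimus dorsi had 4.87 and internal tongue muscle 2.42. The 3 forelimb values lie below all hindlimb values except that of gluteus medius, which is the lowest of all skeletal muscle libraries.

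Among the 9 limb and trunk muscles, MSTN was lowest in the muscles with the most MYH7, gluteus medius and supraspinatus, and highest in semitendinosus, the muscle with the least. Rectus femoris did not follow this order, with the second highest MSTN (6.11 FPKM) at a MYH7 share of 49.4%. The MYH7 share and log2(FPKM + 1) of MSTN had a Pearson's r of -0.79 and a Spearman's rho of -0.70 over 9 libraries. Without gluteus medius and supraspinatus, the muscles farthest from the median share, r was -0.28, so the relation rests on those 2 libraries.

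**Figure D3:**
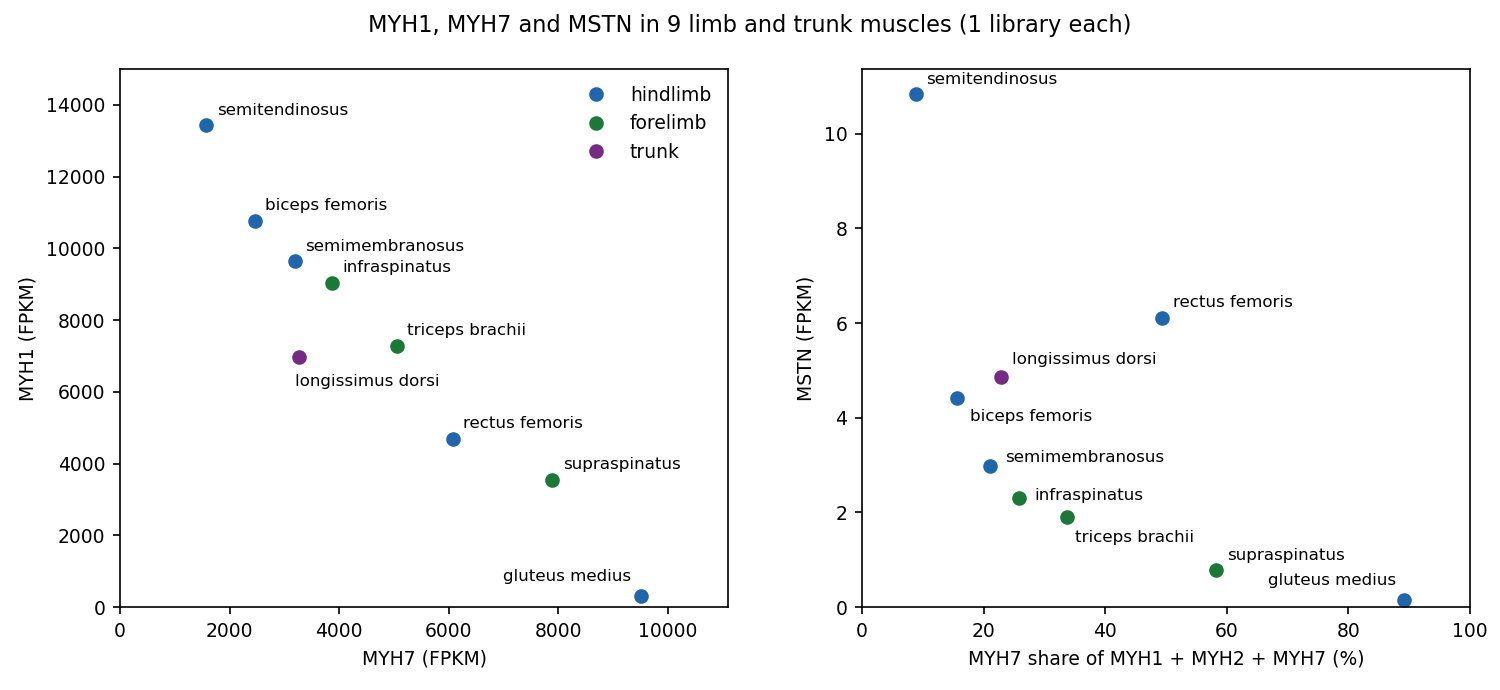
MYH1 against MYH7 in FPKM (left) and MSTN in FPKM against the MYH7 share in percent (right), 1 point per limb or trunk muscle, coloured by body region. On the left MYH1 falls from 13429 to 324 FPKM as MYH7 goes up from 1578 to 9511, and on the right rectus femoris (6.11 FPKM of MSTN) lies above the other muscles with a similar or higher share.

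The heart was set against the limb and trunk muscles to compare cardiac with skeletal fibres. MYH7 had 6726 FPKM in ventricle and 1489.9 in atrium, beside 1578 to 9511 in the muscles, so the ventricle lies inside the muscle range and the atrium just below it. MYH1 had 0.627 FPKM in ventricle and 3.34 in atrium, and MYH2 had 0.354 and 3.33, both below every limb and trunk muscle. The share of all genes with both heart libraries below every muscle was not counted. The ventricle carried 4.51 times the MYH7 level of the atrium, with 1 library each and no test. MSTN was listed at 0 in both heart libraries.

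Slow myosin thus made up 99.99% of the 3 chains in ventricle and 99.6% in atrium, both above gluteus medius. The mean was 99.8 ± 0.304% (SD, n = 2) against 36.1 ± 25.4% (n = 9) in the muscles (exact permutation test, two-sided p = 0.0364, the smallest this design allows; adjusted over 3 share tests 0.109, so it did not pass). In limma, the heart minus muscle difference on the log2 scale was -10.97 ± 1.04 for MYH1 (SE, limma adjusted p = 3.24e-06). For MYH2 it was -9.79 ± 0.49 (limma adjusted p = 6.9e-09), and both genes were lower in 2 of 2 heart libraries. Each reached an FPKM of 1 in 1 of 2 heart libraries, so both entered the test only through the limb and trunk muscles. Nothing is therefore read from these p-values. MSTN entered the test only through the limb and trunk muscles, 7 of which reached an FPKM of 1, so with both heart libraries listed at 0 it could only be lower, and nothing is read from its limma adjusted p of 0.0238. No fold is given against a group listed at 0. It also lost the call with ventricle or atrium left out (limma adjusted p = 0.113 and 0.142, the lone heart library being assumed to vary like the muscles).

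For MYH7 the heart minus muscle difference was -0.39 (95% confidence interval -1.78 to 1.0; limma adjusted p = 0.634), and it was 0.70 without atrium and -1.48 without ventricle. Of the 12313 genes tested, 30.9% were called, 4.45% lower in heart and 26.4% higher, so low calls were the less common kind. The median difference over all genes was 0.51. With quantile normalization, which moved that median to -0.02, the MYH7 difference was 0.066.

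Over the whole series, MYH1, MYH2 and MYH7 were called higher in the 11 skeletal muscle libraries than in the other 83. MSTN was also called, but it passed the filter only through muscle libraries. MYH1 averaged 5982 ± 4626 FPKM in muscle (SD, n = 11) beside a median of 1.51 elsewhere (n = 83, where the mean is carried by few libraries such as choroid plexus with 7685), which is 9.08 ± 0.74 higher on the log2 scale (SE; adjusted p in limma 9.18e-19), with 10 of 11 libraries above the median of the rest. MYH2 averaged 2117 ± 1064 beside a median of 0.8, a difference of 8.59 ± 0.75 (limma adjusted p = 2.96e-17), and MYH7 4085 ± 2830 beside a median of 2.41, a difference of 8.17 ± 0.93 (limma adjusted p = 3.37e-12), each in 10 of 11. Diaphragm was the exception in all 3, and without it the differences were 10.14, 9.60 and 9.25. Of all 18031 tested genes 37.9% were called, 4.61% higher in muscle and 33.3% lower.

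For MSTN the mean was 3.43 ± 3.06 FPKM in muscle and 0.18 ± 0.495 elsewhere, a difference of 1.68 ± 0.15 on the log2 scale. The pseudocount of 1 compresses this difference (3.82 with a pseudocount of 0.1). MSTN passed the filter only through muscle libraries, as too few others reached an FPKM of 1. Nothing is therefore read from its limma adjusted p of 2.96e-16. All 11 muscle libraries were above the median of the rest, but that median was 0, so any value above 0 counted. Of the 11, 8 reached an FPKM of 1. In the library labelled diaphragm MSTN was 0.913 FPKM, beside 0.826 in gall bladder, the library closest to it. Without the libraries labelled diaphragm, choroid plexus and corpus luteum the differences were 10.27 for MYH1, 9.76 for MYH2, 9.51 for MYH7 and 1.77 for MSTN.

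**Figure D4:**
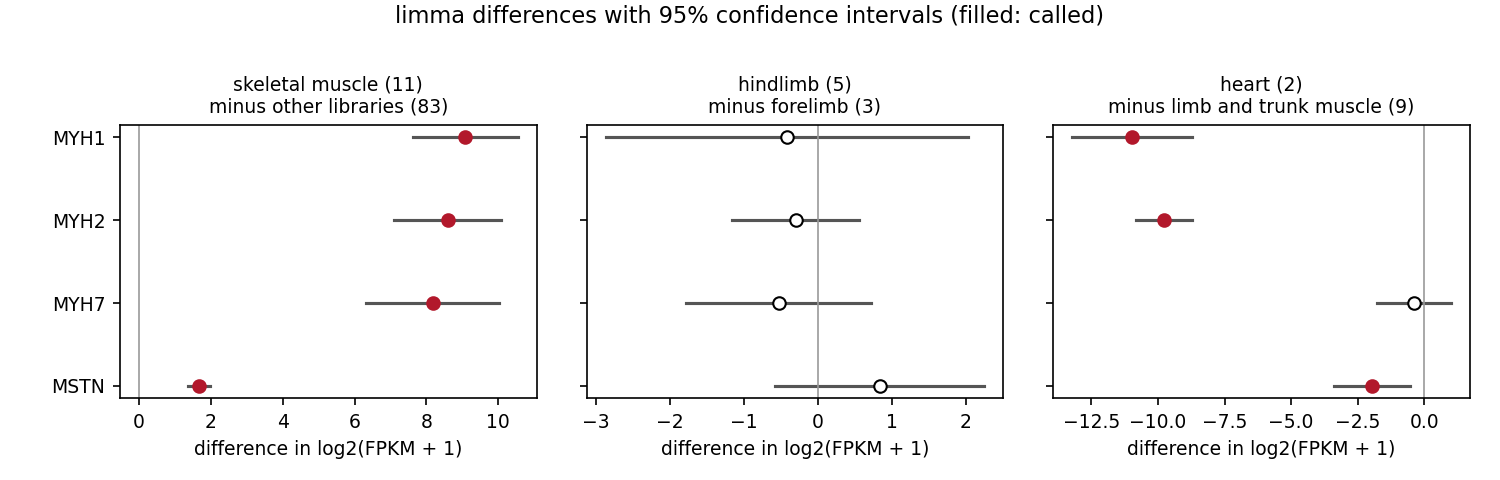
Differences in log2(FPKM + 1) from limma for the 4 genes in 3 comparisons; points are estimates, lines 95% confidence intervals, filled points are called. All 4 are called in skeletal muscle, where MSTN passed the filter only through muscle libraries. None is called between hindlimb and forelimb. All but MYH7 are called between heart and limb and trunk muscle, where these 3 passed the filter only through limb and trunk muscle. MSTN, listed at 0 in heart, could only be lower there.

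The tongue libraries held little MYH1 beside MYH2, and the larynx lay within the limb and trunk range in this respect. Internal tongue muscle had 2533 FPKM of MYH2 and 2030 of MYH7 but 84.8 of MYH1, so MYH2 made up 96.8% of the fast chains there, beside 17.3% to 71.9% in limb and trunk muscle. Tongue surface libraries held less of all 3 chains and a larger MYH2 share, 68.9% and 68.2% beside 54.5% in internal tongue muscle, with 638.5, 256 and 31.7 FPKM of MYH2, MYH7 and MYH1 in the superficial tongue and 293.9, 128 and 8.74 in the lower tongue. The larynx had 5584 FPKM of MYH7, 2844 of MYH2 and 1129 of MYH1, and its MYH2 share of the fast chains was 71.6%, close to gluteus medius. Each is 1 library, so these differences from limb muscle were not tested.

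Of the libraries that did not resemble their labels, choroid plexus carried all 3 heavy chains at limb muscle levels, corpus luteum MYH7 alone and diaphragm none. Choroid plexus had 7685 FPKM of MYH1, 2675 of MYH2 and 5781 of MYH7, shares of 47.6%, 16.6% and 35.8%, and triceps brachii, its closest library, had 48.7%, 17.6% and 33.7%. MSTN was listed at 0 in choroid plexus and was 1.91 FPKM in triceps brachii, and choroid plexus had the fewest genes at an FPKM of 1 of all libraries, 7353. Corpus luteum had 10411 FPKM of MYH7, the highest of all 94 libraries, so MYH7 made up 99.7% of the 3 chains. This library also had 32.6 FPKM of MYH2, 1.35 of MYH1 and 0.293 of MSTN. Over all other genes it was nonetheless closer to longissimus dorsi (rho 0.956) and gluteus medius (0.941) than to atrium (0.904) or ventricle (0.897). Bone marrow had 641 FPKM of MYH7, 184 of MYH1 and 50.8 of MYH2, with MSTN listed at 0.

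In the remaining 75 libraries the heavy chains were low but seldom listed at 0. Their medians were 1.33 FPKM for MYH1, 0.704 for MYH2 and 2.24 for MYH7, and their highest levels were 15.7 in a follicle, 13.6 in the anterior eye and 12.2 in the mammary gland. MYH7 reached an FPKM of 1 in 61 of them, MYH1 in 44 and MYH2 in 29. The 8 brain regions had 1.60 to 6.72 FPKM of MYH7, with the highest level in frontal cortex, and none of them reached an FPKM of 1 for MSTN. The esophagus, whose muscle coat is striated in cattle, had 1.33, 1.41 and 2.04 FPKM of MYH1, MYH2 and MYH7, close to these medians.

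MSTN was listed at 0 in 48 of the 83 libraries outside skeletal muscle and reached an FPKM of 1 in 2. These were the mammary gland, with 3.58 FPKM beside 20.8 for the summed heavy chains, and the fetal testis, with 2.35 beside 9.56. In both the MSTN level was within the range of limb muscle while the heavy chains were far below it. The series also holds a library labelled mammary, in which MSTN was listed at 0 beside 7.83 FPKM for the summed heavy chains. In 19 of the 83, MSTN was at or above its level in gluteus medius.

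The genes whose log2 levels ran most like those of each member over the 94 libraries can be given by identifier only. For MYH2 it was ENSBTAG00000046725 (Pearson's r 0.986), for MYH7 ENSBTAG00000013921 (0.984), for MYH1 ENSBTAG00000022244 (0.954) and for MSTN ENSBTAG00000021298 (0.791). Among the members, MYH1 and MYH2 were the closest pair (0.942), followed by MYH2 and MYH7 (0.884) and MYH1 and MYH7 (0.830), and MSTN correlated with MYH1, MYH2 and MYH7 at 0.696, 0.648 and 0.540. All are correlations across tissues within 1 series, given as a description.

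The gene most like MYH1 was also low in gluteus medius, with 185 FPKM of ENSBTAG00000022244 there and 2393 in semitendinosus. The gene most like MYH7, ENSBTAG00000013921, had 10663 FPKM in gluteus medius and 13389 in semitendinosus, where MYH7 itself had 9511 and 1578. The gene most like MSTN, ENSBTAG00000021298, had 0.451 and 7.98 FPKM in the same muscles, and 1.19 to 1.40 FPKM in heart where MSTN was listed at 0.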

How the data were processed

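RNA sequencing values of 94 libraries were used. The deposited values are FPKM, per the labels, which name the table so; the authors used HISAT2 and StringTie with genome build UMD3.1, per the submitters' processing notes. Their versions and the annotation were not given in the sources used here. FPKM totals differed between libraries (585122 to 1062590), and without read counts no counting error could be set.

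Libraries were grouped by tissue label. Two-sided moderated tests (limma 3.58.1 under R 4.3.3, trended prior variance) were run on log2(FPKM + 1) of those genes that reached an FPKM of 1 in 3 or more of the libraries fitted (2 for heart), with Benjamini-Hochberg adjustment. All 4 members passed in each comparison. For muscle, MSTN passed only through muscle libraries. For heart, MYH1, MYH2 and MSTN passed only through limb and trunk muscle. On simulated data with 200 changed genes, limma recovered 89%, 91% and 92% of log2 changes of 2 for muscle, hindlimb and heart. Tested genes numbered 18031, 10502 and 12313, with 7, 5 and 2 false calls. Changed genes were drawn from those with a mean log2 level above 2, with normal noise. These rates average over genes and need not hold for genes as variable as MYH1 or as low as MSTN. Shares were compared by exact permutation tests in Python 3.11.15. Named genes were the 4 members and, for each, the most correlated gene. Gene lists and cell type markers could not be matched to identifiers and were not run. Members and lists were chosen with earlier results of these data known. Alternatives were a pseudocount of 0.1, no filter, equal totals, quantile normalization, the spread of all libraries, related or mismatched tissues left out, log2 ratios, and each library left out in turn.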

Additional observations from a re-analysis of the deposited data

Results flagged for a closer look

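A library was looked at again where its gap to the nearest other library of its group was large against the group's range on the log2(FPKM + 1) scale. Of 39 combinations of group and measure, 8 were marked in this way. Chance marks about 1 in 20 groups of normally spread values. MYH1 in gluteus medius (324 FPKM) lay below the other 4 hindlimb muscles. In the respiratory group the larynx lay above the other 3 libraries in MYH1 (1129 FPKM), MYH2 (2844) and MYH7 (5584). Among lymphoid libraries, bone marrow lay above the other 4 in MYH1 (184) and MYH7 (641). MSTN was 0.0992 FPKM in ileum and 0.399 in tail of epididymis. It was listed at 0 in the other libraries of the intestine and of the male ducts, so any value above 0 would have been marked there and that rate does not apply.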

How the results depend on the processing

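Each alternative changed 1 choice. MYH1, MYH2, MYH7 and MSTN remained called higher in skeletal muscle under all alternatives. Leaving out each muscle gave log2 differences of 8.78 to 10.14, 8.40 to 9.60, 7.94 to 9.25 and 1.51 to 1.84. MSTN passed the filter only through muscle libraries, so nothing is read from its calls. MYH1 and MYH2 remained called lower in heart (-11.68 to -10.26 and -10.62 to -8.95 with each library left out). Both passed the filter there only through limb and trunk muscle, so nothing is read from these calls. MSTN is listed at 0 in both heart libraries, so its fitted difference depends on the pseudocount (-1.97 with 1, -4.70 with 0.1) and is no bound. With each library left out it ran from -2.18 to -1.77, and it lost its call without ventricle or without atrium. The MYH7 difference in heart, never called, ran from -1.48 to 0.70 with each library left out and was 0.066 with quantile normalization. Between hindlimb and forelimb no member was called under any alternative. With each library left out, MYH1 ran from -0.81 to 0.55, MYH2 from -0.45 to -0.0098, MYH7 from -0.86 to -0.22, MSTN from 0.50 to 1.34, the MYH7 share from -15.5 to 7.02 percentage points (4.54 without semitendinosus, 2.83 without biceps femoris, 1.48 without semimembranosus, 7.02 without supraspinatus), and the MYH2 share of the fast chains from -7.38 to 7.92 (-7.38 without gluteus medius, -1.47 without infraspinatus). The MYH7 share of heart minus muscle ran from 60.2 to 70.3.

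Counts of all genes called moved more. In muscle 6840 genes were called, 832 higher and 6008 lower, and 3924 with quantile normalization (1985 higher, 1939 lower). In heart 3800 were called, 3252 higher and 548 lower, 2563 with quantile normalization (1485 and 1078), 1733 with the spread of all libraries (1370 and 363) and 2167 to 3873 with each library left out, the lowest without atrium. Between hindlimb and forelimb 0 were called, and 1 with the spread of all libraries. Quantile normalization moved the median difference of all genes from -0.66 to -0.15 in muscle. No paired analysis was possible because the labels name no animal. Low values such as those of MSTN are limited by a depth that is unknown.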
